A study of Mus musculus with 6 samples.

Results

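Primordial germ cell genes were followed across 6 libraries of male mouse mesonephros at E12.5, 3 labelled knockout for Wnt9b and 3 labelled control. The genes were chosen by name: Dppa3, Dppa5a, Pou5f1, Utf1, Dazl, Ddx4, Nanos2, Nanos3, Mael and Kit. Of these 10 genes, 8 have a row among the 20033 genes of the deposited table, and Nanos2 and Mael were not analysed here. Values are the authors' TPM, a transcript level scaled for gene length and library size, so that levels can be set side by side between genes. The knockout is a global loss of Wnt9b, a secreted Wnt ligand of the Wolffian duct epithelium. The control embryos are called heterozygous in one label and wild type in the design text, and the labels give no litter, strain, date or batch. Each title names a different mouse, numbered 1 to 3 in each group. The study asked what Wnt9b does in the Wolffian duct and in androgen action, and it implies 1 comparison, knockout against control.

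Primordial germ cells are the embryonic precursors of sperm and eggs. They are set aside early, outside the gonad, migrate along the hindgut and settle in the genital ridges, which lie against the mesonephros. They keep a network of pluripotency genes such as Pou5f1 while they switch on RNA-binding proteins of the germ line such as Dazl and Ddx4. The mesonephros itself holds the tubules, the mesenchyme and the Wolffian duct, and its markers were present in every library. Summed over the 12 genes named for it, among them Pax2, Pax8, Gata3 and Wt1, the level was 854 to 968 TPM in knockouts and 779 to 854 TPM in controls. Tcf21, Wt1 and Emx2 weighed most, at 312, 239 and 133 TPM in knockout 1, where Pax2, Pax8 and Gata3 were at 25.0, 16.3 and 32.0 TPM. The sum does not show how much gonad the libraries held. Wnt9b itself was still read in the knockouts, at 23.4, 19.2 and 19.0 TPM in knockouts 1 to 3, against 24.9, 26.4 and 34.0 TPM in controls 1 to 3. Its log2 difference was -0.44 (SE 0.14; limma adjusted p = 0.266). In the authors' deposited table it is -0.45, at an adjusted p of 0.0263. The groups did not overlap, but a level over the whole gene cannot show a deleted part, and the labels do not say what was deleted. The reads recovered from the deposited values came to 28345532 to 31686077 per library in knockouts and 28591578 to 32908483 per library in controls. The 8 germ cell genes together had 1278 to 2409 of these reads in knockouts and 1283 to 2202 in controls, and the fewest reads behind any one value were the 8 of Dppa3 in control 2.

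The difference between the genotypes accounted for at most 44.1% of the variance of any of the germ cell genes, and the rest lay between embryos of one genotype. Several differences among embryos add up in that rest, against 1 between the genotypes, so the shares do not show which was larger. The levels of 6 of the germ cell genes, Dppa3, Dppa5a, Pou5f1, Utf1, Dazl and Ddx4, went up and down together. Knockout 1, knockout 2 and control 1 were the 3 highest libraries for each of the 6, and knockout 3, control 2 and control 3 the 3 lowest. Kit and Nanos3 did not share this order. None of the 8 genes passed the test between knockouts and controls. In whole tissue, fewer germ cells and less RNA per germ cell cannot be told apart.

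The stretches before the transcription starts of the genes that varied together and of Nanos3 and Kit are shown for comparison. They are the 250 bases before the start on GRCm38.p6 from RefSeq, whose build differs from the GRCm39 of the deposited values, and where a gene has several starts the one farthest upstream was taken. RefSeq windows were matched for 6 of the 8 measured genes; the other two are Dppa3 and Dppa5a. Ddx4 lies at chr13:112652311-112652560, minus strand, Dazl at chr17:50293621-50293870, minus strand, Pou5f1 at chr17:35505782-35506031, plus strand, Utf1 at chr7:139943606-139943855, plus strand, Nanos3 at chr8:84176553-84176802, minus strand and Kit at chr5:75574737-75574986, plus strand. Each is written 5′ to 3′ on the gene's strand. Capitals mark matches to the GC box GGGCGG, the E-box CACGTG and the CCAAT box CCAAT on either strand.
Ddx4: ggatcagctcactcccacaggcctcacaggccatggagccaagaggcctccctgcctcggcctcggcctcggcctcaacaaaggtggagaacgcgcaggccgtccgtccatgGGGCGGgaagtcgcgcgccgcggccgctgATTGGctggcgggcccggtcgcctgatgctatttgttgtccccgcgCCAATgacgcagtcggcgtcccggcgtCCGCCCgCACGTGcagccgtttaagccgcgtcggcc
Dazl: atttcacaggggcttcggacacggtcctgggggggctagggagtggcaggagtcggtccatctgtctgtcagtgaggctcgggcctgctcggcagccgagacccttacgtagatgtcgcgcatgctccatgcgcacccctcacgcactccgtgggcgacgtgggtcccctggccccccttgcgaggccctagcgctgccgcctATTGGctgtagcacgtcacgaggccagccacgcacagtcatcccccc
Pou5f1: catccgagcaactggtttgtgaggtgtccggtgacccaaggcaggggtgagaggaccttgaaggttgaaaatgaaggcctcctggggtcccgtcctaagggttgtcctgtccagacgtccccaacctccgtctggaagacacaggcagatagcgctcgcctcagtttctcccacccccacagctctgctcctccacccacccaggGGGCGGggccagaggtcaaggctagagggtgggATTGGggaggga
Utf1: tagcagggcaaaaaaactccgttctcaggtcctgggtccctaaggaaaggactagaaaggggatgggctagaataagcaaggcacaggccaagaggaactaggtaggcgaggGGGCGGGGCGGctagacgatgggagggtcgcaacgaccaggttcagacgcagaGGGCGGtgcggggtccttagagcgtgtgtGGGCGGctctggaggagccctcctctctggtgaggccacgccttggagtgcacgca
Nanos3: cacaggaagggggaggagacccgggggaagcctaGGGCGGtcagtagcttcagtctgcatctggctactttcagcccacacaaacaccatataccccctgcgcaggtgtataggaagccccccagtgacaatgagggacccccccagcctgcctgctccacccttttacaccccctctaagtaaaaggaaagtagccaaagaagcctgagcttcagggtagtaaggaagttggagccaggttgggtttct
Kit: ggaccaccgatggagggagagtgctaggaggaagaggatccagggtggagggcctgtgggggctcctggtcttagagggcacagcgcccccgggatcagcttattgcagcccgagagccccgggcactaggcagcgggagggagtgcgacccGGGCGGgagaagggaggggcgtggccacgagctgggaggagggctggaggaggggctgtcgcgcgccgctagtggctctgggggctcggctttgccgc

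The Ddx4 window held 31 CpG dinucleotides and a match to all 3 motifs, with 2 GC boxes, 1 E-box and 2 CCAAT boxes. The Dazl window held 20 CpGs and 1 CCAAT box, and no GC box or E-box in these letters. Utf1 had 14 CpGs and 4 GC boxes, 2 of which share a G, and Pou5f1 had 8 CpGs, 1 GC box and 1 CCAAT box. Of the genes outside the shared pattern, Nanos3 had 3 CpGs and Kit 17, each with 1 GC box and neither of the other motifs. Over all 32851 windows of this length, 32.7% held a GC box, 6.02% an E-box and 33.8% a CCAAT box, and the median was 6 CpGs. None of the 3 motifs was in all of the Ddx4, Dazl, Utf1 and Pou5f1 windows.

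The pluripotency genes Dppa3, Dppa5a, Utf1 and Pou5f1 are shared by germ cells and the early embryo.
Dppa3 (ENSMUSG00000046323), also called Stella, protects DNA methylation of the maternal genome in the zygote and is a classical marker of primordial germ cells. Its level was 19.0, 8.55 and 4.55 TPM in knockouts 1 to 3, from 156, 64 and 34 reads, against 16.6, 1.09 and 1.68 TPM in controls 1 to 3, from 144, 8 and 12 reads. Control 1 lay with knockout 1, far above the other controls, and the groups overlapped. The 95% counting interval in control 1, 14.0 to 19.5 TPM, was clear of those in control 2 (0.469 to 2.14 TPM) and control 3 (0.866 to 2.93 TPM). Control 1 was 12.0-fold above the mean of controls 2 and 3. The mean was 10.7 ± 7.47 TPM in knockouts and 6.45 ± 8.79 TPM in controls (SD, n = 3 each). Counting intervals here cover counting error only.

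Dppa5a (ENSMUSG00000060461), an RNA-binding protein gene of pluripotent and germ cells, had the highest mean of the 8 genes over all libraries. It was at 34.8, 24.4 and 11.6 TPM in knockouts 1 to 3, against 26.6, 8.80 and 13.7 TPM in controls 1 to 3. Knockout 3 lay between controls 2 and 3, and control 1 above knockout 2. Utf1 (ENSMUSG00000047751), a chromatin-associated factor of pluripotent cells, was at 17.4, 7.96 and 2.33 TPM in knockouts 1 to 3, against 7.20, 1.97 and 2.23 TPM in controls 1 to 3. Its knockout libraries spanned 7.44-fold, more than its control libraries at 3.65-fold. Knockout 3, from 24 reads, was close to controls 2 and 3, from 20 and 22 reads.

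Pou5f1 (ENSMUSG00000024406), which encodes the transcription factor Oct4 and is needed for germ cells to survive, was at 3.92, 4.03 and 0.956 TPM in knockouts 1 to 3, against 2.74, 0.592 and 1.05 TPM in controls 1 to 3. It was the only one of the 6 co-varying genes that was not highest in knockout 1, and there the 95% counting interval (3.11 to 4.87 TPM) contained the value of knockout 2. The lowest libraries held few reads of Pou5f1, 18 in knockout 3, 11 in control 2 and 19 in control 3. Pou5f1, Dppa3 and Dppa5a have near-identical pseudogenes in the mouse, so their values are uncertain to the extent that reads were split among copies, which no source used here describes.

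The RNA-binding proteins of the germ line are represented by Dazl, Ddx4 and Nanos3.
Dazl (ENSMUSG00000010592), which licenses germ cells for sexual differentiation, was at 9.31, 5.86 and 1.41 TPM in knockouts 1 to 3, from 327, 188 and 45 reads, against 5.65, 1.58 and 1.40 TPM in controls 1 to 3, from 210, 50 and 43 reads. The value of knockout 3 lay within the counting intervals of controls 2 and 3, and that of control 1 within the interval of knockout 2. The mean was 5.52 ± 3.96 TPM in knockouts and 2.88 ± 2.40 TPM in controls (SD, n = 3 each).

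Ddx4 (ENSMUSG00000021758), the mouse vasa helicase of germ cells, was at 4.40, 2.85 and 1.505 TPM in knockouts 1 to 3, against 2.22, 1.00 and 0.662 TPM in controls 1 to 3. Control 1 was the only control above a knockout, as it was for Dppa3 and Utf1. The difference between the genotypes accounted for 44.1% of its variance over the libraries. For the rest of the measured genes that share ran from 0.0285% for Nanos3 to 34.8% for Kit.

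Nanos3 (ENSMUSG00000056155), which keeps migrating germ cells alive, behaved otherwise. It was at 4.0, 6.06 and 2.84 TPM in knockouts 1 to 3, against 3.45, 4.85 and 4.32 TPM in controls 1 to 3. All 6 values came from 22 to 47 reads, and the counting interval of knockout 3 (1.78 to 4.30 TPM) overlapped that of every other library except knockout 2 (4.45 to 8.06 TPM). Control 1, high for the genes above, was the lowest control here.

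Kit (ENSMUSG00000005672), the receptor for stem cell factor on germ cells, is also made by pigment cell precursors, mast cells and blood progenitors. It was at 15.8, 14.4 and 13.9 TPM in knockouts 1 to 3, against 16.7, 14.8 and 16.2 TPM in controls 1 to 3, from 1037 to 1446 reads per library. Its highest library was 1.20-fold above its lowest, where that ratio was 3.95 for Dppa5a and 17.5 for Dppa3. Genes of other Kit-bearing cells were measured beside it. Of 7 genes named for melanoblasts 4 had a row, with summed levels of 7.89 to 12.7 TPM in knockouts and 6.96 to 10.5 TPM in controls, and the pigment gene Dct was at no more than 0.848 TPM. Mitf, the main transcription factor gene of pigment cells, was at 4.30 to 5.36 TPM in knockouts and 5.57 to 7.02 TPM in controls (limma adjusted p = 0.423). All 9 genes named for mast cells and blood progenitors had a row, with sums of 201 to 314 TPM in knockouts and 236 to 287 TPM in controls, most of it Gata2 and Cd34, which other cells of the region also express. Within that list, the mast cell protease gene Cpa3 was at 11.5, 6.20 and 8.81 TPM in knockouts, against 3.66, 1.60 and 4.77 TPM in controls (limma adjusted p = 0.187). The part of these cells in the Kit level was not tested.

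**Figure D1:**
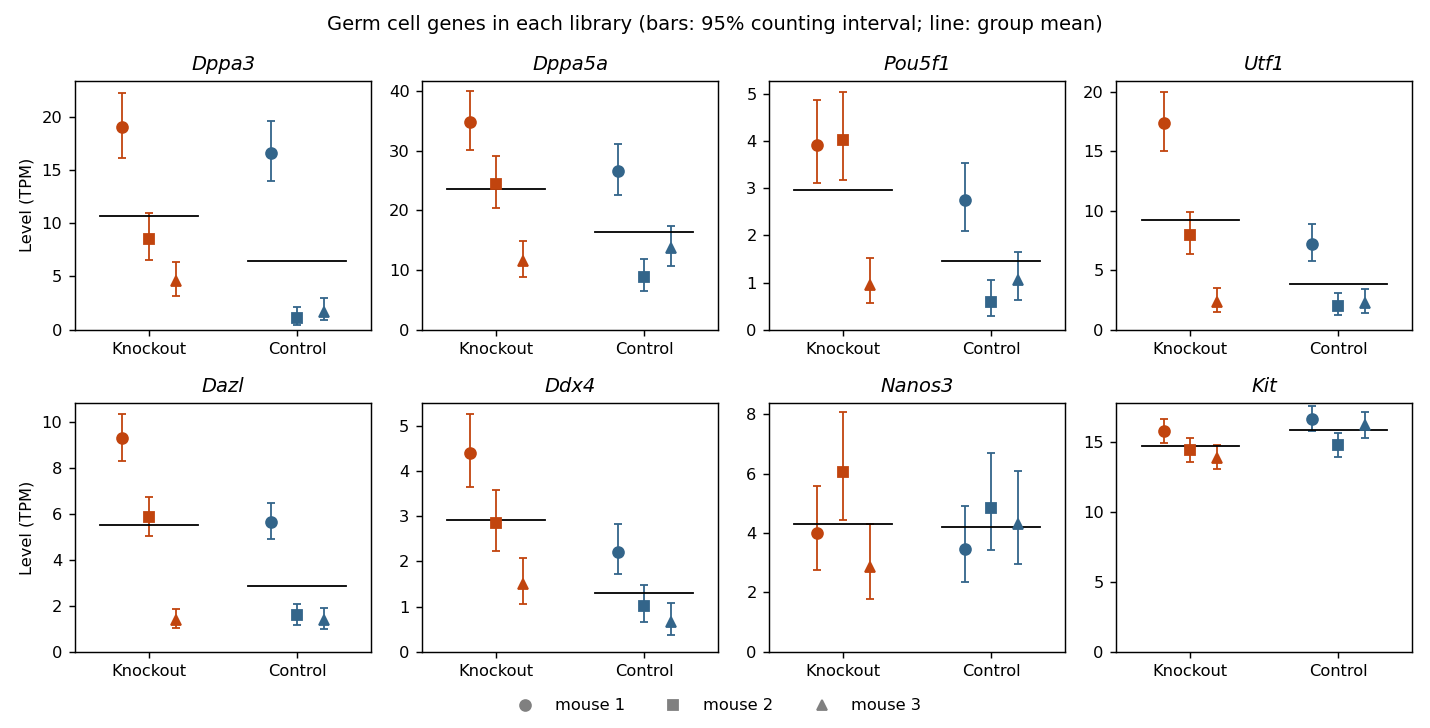
Level in TPM of the 8 measured germ cell genes in each library, knockouts left of controls, with a symbol for each mouse number, the 95% counting interval from recovered reads and the group mean as a line. Mouse 1 of the controls lies among the higher knockouts for Dppa3, Dppa5a, Utf1 and Dazl, while Kit stays between 13.9 and 16.7 TPM.

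In order of mean level over the 6 libraries, Dppa5a (19.97 TPM) was followed by Kit (15.3 TPM), Dppa3 (8.58 TPM), Utf1 (6.51 TPM), Nanos3 (4.25 TPM), Dazl (4.20 TPM), Pou5f1 (2.21 TPM) and Ddx4 (2.11 TPM). The ranges over the libraries of each gene and the next in this order overlapped, so the spread between libraries does not separate neighbours.

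The comparison of knockout with control was made with limma on log2(TPM + 1) over 17577 genes. All 8 measured genes passed the filter, which asked for 1 TPM or more in 3 libraries or more. By limma 0 of the 8 were higher and 0 were lower in knockouts at an adjusted p under 0.05, where 0.131% of all tested genes were higher, 0.313% were lower and 0.444% were either. At an unadjusted p under 0.05 the count was 0 of 8, where 11.3% of all tested genes passed. That count was 4 of 8 without knockout 3 (Dazl, Ddx4, Pou5f1 and Utf1) and 2 of 8 without control 1 (Dppa3 and Ddx4), with limma adjusted p of 0.176 or more. The share of all genes at that unadjusted p was not worked out for these fits, so the counts have no background. Over all genes, the number at a limma adjusted p under 0.05 was 243 without knockout 3 and 28 without control 1, against 78. With limma-voom on the recovered reads 0 of 8 passed as well, where 1.7% of all genes did, and Ddx4 alone had an unadjusted p under 0.05. The authors' deposited table has 0 of the 8 at an adjusted p under 0.05, where 3.55% of its genes with an adjusted p are. The knockout and control libraries overlapped for all 8 genes, where they did not overlap for 16.6% of all tested genes, 8.14% being higher in knockouts.

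The log2 difference, knockout minus control, was positive for 6 of the 8 genes, the same 6 that varied together, with a median of 0.67 over the 8 and of -0.0075 over all genes tested. For Dppa3 it was 1.14 (SE 0.79, 95% interval -0.66 to 2.95; limma adjusted p = 0.653). That for Ddx4 was 0.76 (SE 0.35, 95% interval -0.04 to 1.56; limma adjusted p = 0.469), the smallest p of the 8. The other 4 of the 6, Utf1, Dazl, Pou5f1 and Dppa5a, had differences of 0.93, 0.68, 0.66 and 0.51 with limma adjusted p of 0.635, 0.720, 0.641 and 0.732. These intervals do not show that the genes were equal in the 2 genotypes. For Dazl the interval ran from -0.63 to 1.99, which holds both a lower level and a several-fold higher level in knockouts.

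Kit and Nanos3 had narrower intervals. The log2 difference of Kit was -0.10 (95% interval -0.35 to 0.14; limma adjusted p = 0.779), and that of Nanos3 was -0.01 (95% interval -0.57 to 0.55; limma adjusted p = 0.993). The authors' deposited table gives log2 fold changes of 1.16 for Ddx4, 1.01 for Pou5f1 and 0.71 for Dppa3, with adjusted p of 0.250, 0.529 and 0.912. Limma compares means of log2(TPM + 1), and the added 1 TPM shrinks log2 differences at low levels. For Dppa3, however, the limma difference of 1.14 was larger than the authors' 0.71, and it was 1.48 with a pseudocount of 0.1. The cause was not tested.

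Without single libraries the differences moved by more than 1.5 times, and no member passed the test. Without knockout 3 the log2 difference of Dazl was 1.28, and without knockout 1 it was 0.23 (limma adjusted p = 0.222 and 0.936). Without control 1 that of Dppa3 was 2.11, and without control 2 it was 0.57 (limma adjusted p = 0.203 and 0.918).

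**Figure D2:**
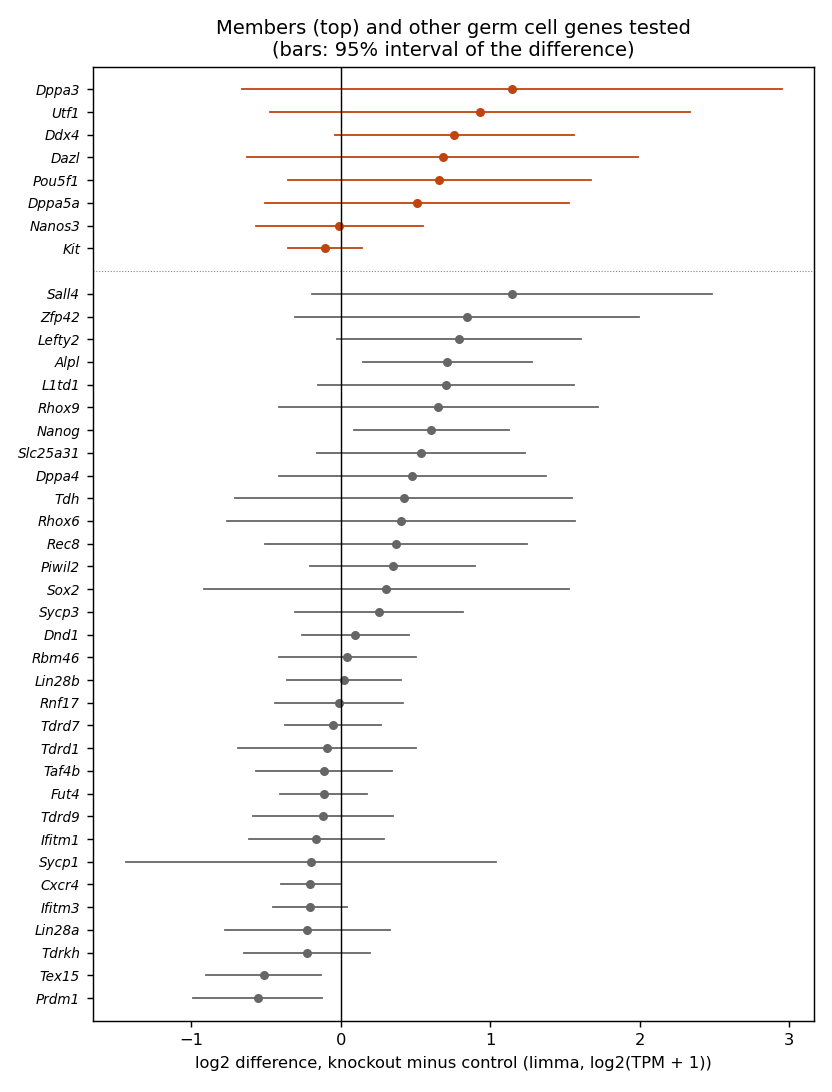
Log2 difference, knockout minus control, with its 95% interval for the 8 germ cell genes (top) and the 32 other germ cell genes tested (below). The intervals of all 8 members include 0, and the median of the members is 0.67.

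The way the genes vary together was described by Pearson's r of log2(TPM + 1) over the 6 libraries, which share tissue, kit and processing, and no p is given. The libraries form a higher and a lower set, so a high r says mostly that 2 genes share that split. Among the 15 pairs of Dppa3, Dppa5a, Pou5f1, Utf1, Dazl and Ddx4, a set formed after the values were seen, r ran from 0.87 to 0.98 with a median of 0.94. Spearman's rho ran from 0.71 to 0.94. With the 2 libraries farthest from the median of the first gene left out, r ran from 0.75 to 0.99. The closest pair was Dazl with Utf1 (r = 0.98, rho = 0.83).

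The genes were also close within each genotype. Against the mean of the other measured genes without Kit, r of the 6 genes ran from 0.93 to 1.00 in the 3 knockouts and from 0.92 to 1.00 in the 3 controls, with only 3 libraries behind each value. On the same measure Kit had r of 0.89 in knockouts and 0.75 in controls, over its narrow range, and Nanos3 had r of 0.58 in knockouts and -0.97 in controls. Over all 6 libraries, Nanos3 had r between -0.18 and 0.28 with single other genes, and Kit between -0.09 and 0.46. Over all 28 pairs of the 8 genes the median r was 0.87.

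**Figure D3:**
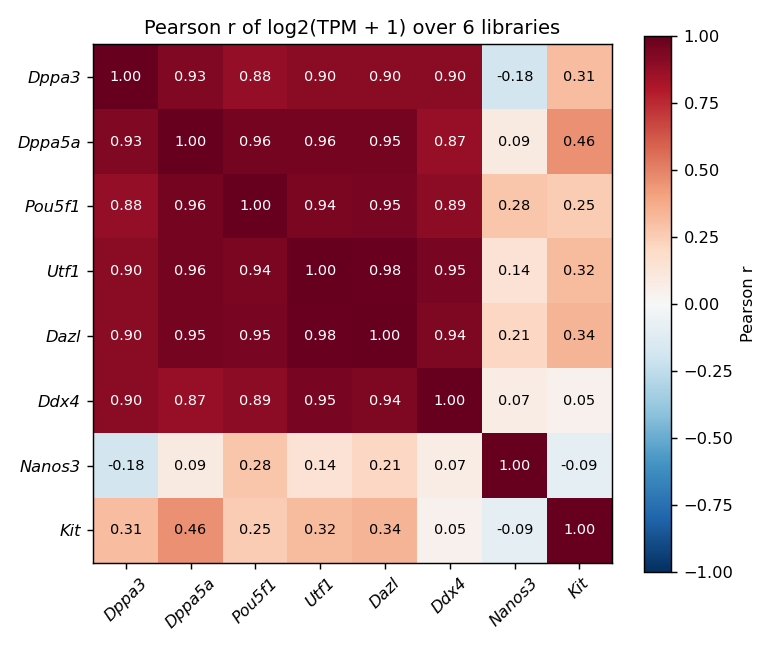
Pearson's r of log2(TPM + 1) over the 6 libraries for each pair of the 8 germ cell genes. The 6 genes from Dppa3 to Ddx4 have r of 0.87 or more with each other, and Nanos3 and Kit have r of at most 0.46 with any gene.

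The genes did not keep one fixed ratio. Dppa3 was at 0.547, 0.350 and 0.393 of the Dppa5a level in knockouts 1 to 3, against 0.625, 0.123 and 0.122 in controls 1 to 3, so that Dppa3 was lower against Dppa5a in the 2 controls with least of both. Ddx4 was at 0.473, 0.485 and 1.07 of the Dazl level in knockouts 1 to 3, against 0.392, 0.634 and 0.472 in controls 1 to 3. Knockout 3 stood apart in this ratio, with 38 reads of Ddx4 and 45 of Dazl. Utf1 kept closer to Dazl, at 1.36 to 1.87 times its level in knockouts and 1.25 to 1.59 times in controls.

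The spread within genotypes was large beside that of other genes. The residual SD of Dppa3, Utf1, Dazl, Dppa5a, Pou5f1 and Ddx4 exceeded that of 99.8%, 99.5%, 99.2%, 98.1%, 97.5% and 93.8% of all tested genes at any level, and that of Kit exceeded 18.3%.

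Other genes known from germ cells were listed by name, and 43 of 60 had a row. Limma called 0 of the 32 tested genes higher and 0 lower, and the median log2 difference was 0.07. At an unadjusted p under 0.05 there were 5 of the 32, where 11.3% of all tested genes passed. Tex15, needed for transposon silencing in male germ cells, was lower in the authors' deposited table, by a log2 fold change of -0.62 (adjusted p = 0.00482). Limma-voom called 0 of the 32.

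Part of this list followed the same libraries. An r above 0.8 with the mean of the measured germ cell genes other than Kit was found for 8 of the 32 genes (25.0%), where 2.41% of all tested genes had one. Over the 32 genes the median r was only 0.14. Some went the other way, among them Tdrd9, Tex15, Tdrd1 and Lin28a, with r of -0.89, -0.78, -0.70 and -0.59. The 8 with r above 0.8 were Tdh, Zfp42, Lefty2, Sox2, Dppa4, L1td1, Rhox9 and Rhox6. Of these, Tdh, Zfp42, Lefty2 and Rhox6 reached 1 TPM only in knockout 1, knockout 2 and control 1. They passed the filter through the libraries where the germ cell genes were high, so their place among the 8 is no independent support. Zfp42, also called Rex1 and a pluripotency marker, was at 3.01, 2.41 and 0.127 TPM in knockouts 1 to 3, against 1.09, 0 and 0.265 TPM in controls 1 to 3. Sox2, a partner of Oct4 also made in neural and glial cells, was at 5.39, 3.18 and 0.696 TPM in knockouts, against 4.0, 0.706 and 1.82 TPM in controls. Both followed the high and low libraries of Pou5f1. Dppa4, a chromatin protein gene of pluripotent cells, was at 4.51, 2.01 and 1.72 TPM in knockouts, against 3.34, 1.02 and 0.900 TPM in controls.

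Sall4, a zinc finger factor of germ cells, departed from the pattern in control 1. It was at 16.3, 7.12 and 1.60 TPM in knockouts 1 to 3, against 1.95, 2.86 and 1.96 TPM in controls 1 to 3 (log2 difference 1.15, SE 0.58; limma adjusted p = 0.534). Nanog, the pluripotency factor, was highest in knockout 3, at 2.91, 2.66 and 3.62 TPM in knockouts 1 to 3, against 1.79, 1.08 and 2.22 TPM in controls 1 to 3. Its adjusted p was 0.361 with limma. Prdm1, which specifies germ cells and is also made in other embryonic cells, was at 4.25, 4.12 and 3.06 TPM in knockouts, against 6.96, 4.86 and 6.41 TPM in controls (limma adjusted p = 0.307). Without overlap between the groups, 2 of the 32 genes were higher in knockouts (Nanog and Alpl) and 3 were lower (Prdm1, Tex15 and Cxcr4), where 16.6% of all tested genes did not overlap.

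The 8 genes of highest level on the list, most of which other cells also express, had r between -0.71 and 0.63 with that mean. Ifitm3, an interferon-inducible membrane protein gene used as an early germ cell marker, averaged 88.2 TPM in knockouts and 103 TPM in controls. The chemokine receptor gene Cxcr4, through which germ cells are guided, was at 31.2 to 35.6 TPM in knockouts, against 36.2 to 39.6 TPM in controls (limma adjusted p = 0.423). Ifitm1, Tdrd7, Fut4, Lin28b, Alpl and Dnd1 had log2 differences between -0.16 and 0.71. Alpl, the alkaline phosphatase by which germ cells are stained, was the highest of these at 0.71 (SE 0.25; limma adjusted p = 0.318), with 9.97, 9.89 and 8.41 TPM in knockouts, against 5.73, 7.74 and 3.34 TPM in controls.

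The signals that germ cells follow in the gonad come from somatic cells. Kitl, which encodes the ligand of Kit, was at 36.5, 32.8 and 36.9 TPM in knockouts, against 28.7, 26.7 and 30.4 TPM in controls. The Kitl groups did not overlap, and the log2 difference of 0.30 (SE 0.09) did not pass limma's test (adjusted p = 0.244). The authors' deposited table gives Kitl an adjusted p of 0.0318. Cxcl12, the ligand of Cxcr4, was at 131 to 142 TPM in knockouts, against 112 to 125 TPM in controls (limma adjusted p = 0.288). In the list of these ligands and receptors, 0 of 4 passed limma's test, 3 had an unadjusted p under 0.05, and 0 passed limma-voom. At that unadjusted p 11.3% of all tested genes passed.

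Genes that silence transposons in the male germ line through small RNAs were listed by name as well. Of 20 named 15 had a row and 9 were tested, of which limma called 0 either way and 0 had an unadjusted p under 0.05. Limma-voom and the authors' deposited table called 0 of them as well. Tex15, described above as lower in that table, is not on this list. The 1 of the 9 with r above 0.8 was Ddx4 itself. The summed level was 29.1 to 31.5 TPM in knockouts and 25.0 to 30.8 TPM in controls. Tdrd7 and Tdrkh, the genes of highest level on that list, had log2 differences of -0.05 and -0.23.

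Across all genes whose log2(TPM + 1) ranged by at least 1 over the libraries, the 10 apart from the members whose pattern was most like the mean of the measured germ cell genes other than Kit were Gdf7, Tdh, Fkbp6, Hsd17b3, Mt3, H3c1, Zfp42, Tuba3a, Lefty2 and Tesc. Of these, Tdh, Zfp42 and Lefty2 are among the other germ cell genes above. The r of the 10 over the 6 libraries ran from 0.94 to 0.98. Tdh, Fkbp6, Hsd17b3, Mt3, Zfp42 and Lefty2 reached 1 TPM only in knockout 1, knockout 2 and control 1. The filter kept these genes through the high libraries of the germ cell genes, so their likeness is not independent of the filter. Gdf7, which encodes a ligand of the bone morphogenetic protein family, was at 3.13, 2.43 and 1.17 TPM in knockouts, against 1.88, 0.851 and 1.05 TPM in controls. Fkbp6, needed for meiosis in mouse males, was at 3.85, 2.17 and 0.953 TPM in knockouts, against 2.23, 0.138 and 0.284 TPM in controls. Hsd17b3, which makes testosterone from androstenedione, was at 3.20, 1.28 and 0.343 TPM in knockouts and 1.11 TPM in control 1, and was listed at 0 in controls 2 and 3. None of the 10 passed limma's test between the genotypes, with adjusted p of 0.461 or more.

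Genes of Sertoli cells and other gonadal somatic cells moved in part with the germ cell genes. The 19 genes named summed to 407 to 523 TPM in knockouts and 333 to 379 TPM in controls, and none of the 19 was at 0 in all libraries. By limma 6 of 17 tested were higher in knockouts (Kctd14, Inhbb, Nr5a1, Nr0b1, Gata4 and Lhx9) and 0 were lower, where 0.131% of all tested genes were higher. That these genes were higher was known when the list was made, so their direction is not independent evidence. The log2 difference was positive for 12 of the 17, with a median of 0.76. Amhr2 was at -0.48 (limma adjusted p = 0.348), and Sox9, Fgf9, Cyp26b1 and Cbx2 lay between -0.08 and -0.03. An r above 0.8 with the germ cell mean was found for 5 of the 17 (29.4%), where 2.41% of all tested genes had one. The 5 were Dhh, Amh, Aard, Gadd45g and Ptgds, and none of them was among the 6 called by limma. Kctd14, first by adjusted p, was at 36.6, 27.9 and 27.8 TPM in knockouts, against 8.37, 4.15 and 4.56 TPM in controls (limma adjusted p = 0.00858).

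Amh, the hormone of Sertoli cells that removes the Müllerian duct, was at 67.8, 44.65 and 9.58 TPM in knockouts 1 to 3, against 10.5, 5.87 and 4.33 TPM in controls 1 to 3. Knockouts 1 and 2 were high, and knockout 3 lay just under control 1, with r of 0.88 with the germ cell mean. It did not pass the test (log2 difference 2.10, SE 0.62; limma adjusted p = 0.244).

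Gata4 and Nr5a1, transcription factor genes of the gonadal soma, split by genotype. Gata4 was at 39.6, 41.2 and 33.2 TPM in knockouts, against 17.0, 8.25 and 7.02 TPM in controls, and 85.8% of its variance lay between the genotypes. Nr5a1 was at 25.1, 20.2 and 19.45 TPM in knockouts, against 9.48, 5.20 and 4.97 TPM in controls (limma adjusted p = 0.0354 for Gata4 and 0.0281 for Nr5a1). Knockout 3 had these genes at about the level of the other knockouts, while its Dazl, Utf1, Pou5f1 and Dppa5a were close to controls 2 and 3. Its Dppa3 and Ddx4 were above both of those controls, and for Dppa3 the counting interval of knockout 3 (3.15 to 6.36 TPM) was clear of theirs. Control 1 was the highest control for both genes. The part of gonadal tissue in the germ cell values was not tested.

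**Figure D4:**
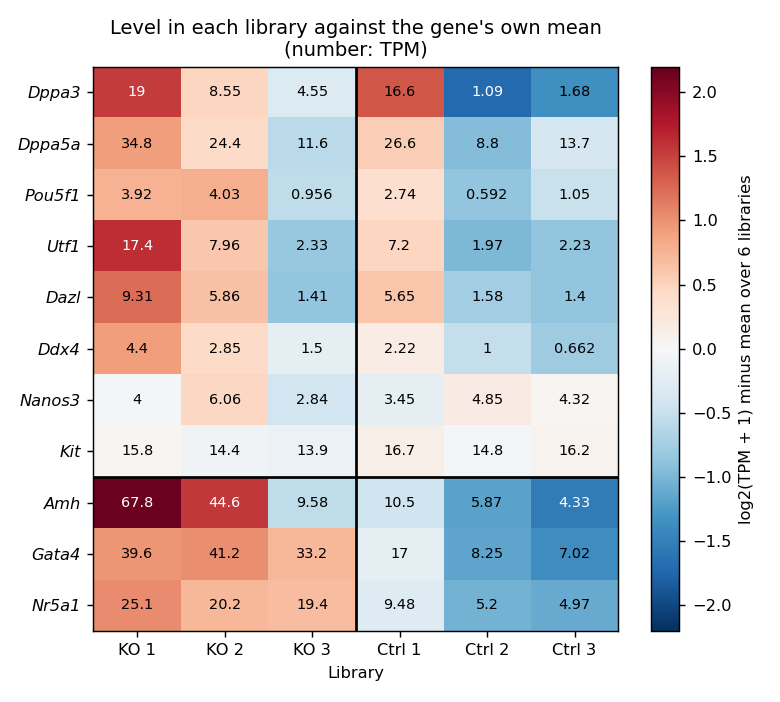
Level of each gene in each library against the gene's own mean, in log2(TPM + 1), with TPM written in each cell, for the 8 germ cell genes (above the line) and 3 gonadal somatic genes (below). Knockout 3 is low for the germ cell genes from Dppa3 to Dazl and high for Gata4 and Nr5a1.

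The summed level of the 6 co-varying germ cell genes was 88.8, 53.7 and 22.3 TPM in knockouts 1 to 3, against 61.0, 15.0 and 20.7 TPM in controls 1 to 3. Gata4 followed the germ cell genes in part, with r of 0.71 with their mean over the libraries (0.70 for Nr5a1), but it did not follow this sum across the genotypes. Knockout 3, with 22.3 TPM of germ cell genes, had 33.2 TPM of Gata4, and control 1, with 61.0 TPM of germ cell genes, had 17.0 TPM of Gata4.

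**Figure D5:**
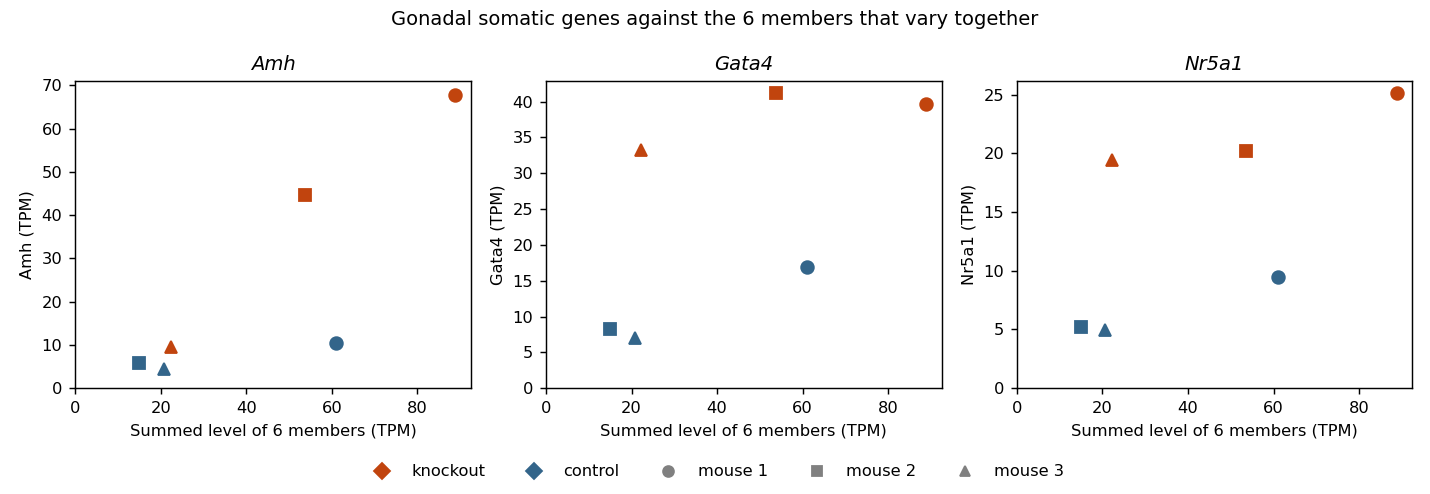
Levels in TPM of Amh, Gata4 and Nr5a1 in each library against the summed TPM of the 6 germ cell genes that vary together, knockouts in orange and controls in blue, with a symbol for each mouse number. Gata4 and Nr5a1 are higher in each knockout than in each control, and Amh is high in knockouts 1 and 2, with 67.8 and 44.65 TPM.

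Steroid-making cells of the fetal testis gave a low signal. Of 8 genes named 6 had a row, summing to 33.6 to 43.5 TPM in knockouts and 23.8 to 28.2 TPM in controls. For each of the 4 tested the knockouts lay above the controls without overlap, as for 8.14% of all tested genes. Of the 4, 0 passed limma's test, 0 passed limma-voom and 1 had an unadjusted p under 0.05, where 11.3% of all tested genes did. Scarb1, the receptor for high-density lipoprotein, had the highest level of the 4 and a log2 difference of 0.24. Cyp17a1, needed for androgen synthesis, was under the filter, at 2.75, 1.68 and 0.129 TPM in knockouts 1 to 3, against 0.0742, 0.0437 and 0 TPM in controls 1 to 3. The authors' deposited table gives Cyp17a1 an adjusted p of 0.000734, the only gene of this list it has under 0.05.

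Some blood genes followed the germ cell pattern, and no mesonephric gene tested did so at an r above 0.8. The 9 erythroid genes summed to 15093 to 17607 TPM in knockouts and 12502 to 16783 TPM in controls, and 0 of 9 passed limma's test (1 at an unadjusted p under 0.05, 0 by limma-voom or in the authors' deposited table). Hbb-y and Hba-a1 were the highest of them, and 1 of the 9, Hba-x, an embryonic globin gene, had r above 0.8 (0.88), a share of 11.1% where 2.41% of all tested genes did. Among mast cell and blood progenitor genes it was 1 of 6 (16.7%), Mpo, a myeloid peroxidase gene, with r of 0.97 over a narrow range of 2.82 to 3.62 TPM in knockouts and 2.66 to 3.48 TPM in controls. Of the 12 genes of the mesonephros and Wolffian duct, 1 was higher (Tcf21) and 1 was lower (Lhx1) in knockouts, and 0 of 12 had r above 0.8 with the germ cell mean. For melanoblasts, 0 of 2 tested genes passed limma's test (2 at an unadjusted p under 0.05). For mast cells and blood progenitors it was 0 of 6 (1 at an unadjusted p under 0.05), and limma-voom called 0 in both. At that unadjusted p 11.3% of all tested genes passed. The authors' deposited table has 1 gene of each of these 2 lists at an adjusted p under 0.05, Sox10 and Cpa3. Sox10, which neural crest cells also express, was at 6.70, 2.97 and 1.57 TPM in knockouts 1 to 3, against 2.09, 0.714 and 0.899 TPM in controls 1 to 3, an order close to that of the germ cell genes (r = 0.93).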

How the data were processed

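PicoPure-extracted RNA was selected for poly(A) and read in pairs, per the labels' protocols. The submitters' processing notes name GRCm39 and DESeq2; the sources used here do not give the aligner, counter or strand setting. The authors deposited TPM per library beside their log2 fold change, p-value and adjusted p-value of knockout over control, per the file headers.

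Libraries were grouped by title. Each gene was fitted on log2(TPM + 1) by limma (version 3.58.1, R 4.3.3; trend on, genotype the only term), keeping genes that reached 1 TPM in 3 or more libraries, with Benjamini-Hochberg adjustment over 17577 genes and a threshold of 0.05. P-values measure the spread between these 6 mice. The fit was also run on simulated reads, with the same spread for all genes and changes placed only in genes of higher counts. That run does not show how well the fit would find a change in the members.

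Reads were recovered from TPM, summed exon length (GENCODE M21) and 1 factor per library. Of 20033 genes, 18198 came out whole within 0.02 reads, including all 8 members measured. Another 1826 have lower bounds only and 9 were not recovered. Genes with lower bounds entered the recovered totals and, past the filter, limma-voom at those bounds. The count of limma-voom over all genes is uncertain to that extent. Counting intervals are exact Poisson intervals at 95%.

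The members and lists were chosen with earlier results of these data known. By rule, the genes named were the members, the 8 other germ cell genes of highest level, the 10 most similar genes (passing over predicted, Rik, Y-linked genes and pseudogenes) and, per other list, up to 3 past the test or else the 2 highest. Of the genes this rule names, 1 is not reported here. Other names were chosen after their values were seen. Alternatives were a pseudocount of 0.1, no filter, median-of-ratios scaling, each library left out, a replicate block and limma-voom on recovered reads.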

Additional observations from a re-analysis of the deposited data

How the results depend on the processing

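No germ cell gene passed the test under any of the 11 alternatives run (0 of 88 values), nor did any of the other germ cell genes. The direction held for 7 of the 8 genes. For Nanos3 the log2 difference of -0.01 turned to 2.65e-05 with limma-voom on recovered reads, 0.01 without knockout 1, 0.20 without knockout 3, 0.08 without control 2 and 0.01 without control 3, and the cause was not tested. Its values without single libraries ran from -0.24 to 0.20. The median r over pairs of members was 0.87 and stayed between 0.81 and 0.89 without single libraries.

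The count over all genes, 78, was less stable. It was 299 with limma-voom on recovered reads and ran from 13 to 243 without single libraries. It was lowest without control 2 and highest without knockout 3. With the mouse number as a replicate block it was 17. Same-numbered samples share only a number: the deviations of same-numbered libraries from their group means had correlations of -0.06, 0.05 and -0.05 over genes. The block changed no call on a germ cell gene, with 3 of 8 members at an unadjusted p under 0.05 (Dppa3, Ddx4 and Utf1). The share of all genes at that p with the block was not worked out. Median-of-ratios scaling moved a library's median by at most 0.04 on the log2 scale. The depth limits the lowest values, such as 8 reads of Dppa3 in control 2.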
